A study of Homo sapiens with 18 samples.

Results

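BxPC-3 cells, a line grown from a human pancreatic ductal adenocarcinoma, were compared after 6 h with 100 nM THZ1 and after 6 h with its solvent, DMSO. The account covers the 6 BxPC-3 libraries of 18 in the series, 3 treated with THZ1 and 3 with DMSO, and the 17026 endogenous genes listed in the deposited table. Of these genes, 15354 passed a filter on low values and were tested, and 1672 did not. Every listed gene had at least 1 read in each of the 18 libraries. A gene without reads in any 1 library, of whatever line, is therefore absent. Marker and list counts below cover listed genes only. The other 12 libraries come from the lines MIA PaCa-2 and PANC-1, treated in the same way, and serve here to estimate the spread and to show where the BxPC-3 response differed. All 3 lines were grown in F12 medium with serum, beta-glycerophosphate and ascorbic acid, so both BxPC-3 groups carried these additions. Polyadenylated RNA was sequenced, and ERCC spike-in RNA had been added to the extracted total RNA. A single line stands for a single tumour, and the labels do not say whether replicates came from separate cultures, so the spread behind each p-value is that of these libraries alone and may be technical. In such bulk RNA, fewer cells of a type and less RNA per cell cannot be told apart.

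THZ1 binds covalently to CDK7, a kinase within the initiation complex TFIIH, and also to CDK12 and CDK13. CDK7 phosphorylates the tail of RNA polymerase II at the start of transcription, when the cap is added and promoter-proximal pausing is set up, and CDK12 and CDK13 act during elongation. When transcription slows, transcripts with short half-lives, such as those of immediate early genes and many regulators, are lost sooner than long-lived ones, such as those of metabolic enzymes.

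To show the promoters of genes with some of the steepest changes, the 250 bases upstream of the RefSeq start (GRCh38.p14) are shown for 3 genes that fell (ZC3H4, DKK1 and CYP1A1) and 2 that rose (JUNB and IER2). Capitals mark TATAAA, the core of the TATA box, and GCGTG, the core of the element bound by the aryl hydrocarbon receptor, or their reverse complements; the motifs were searched on both strands and do not overlap in these windows. The strand of each gene is that of its transcription, and sequences run 5′ to 3′ on it.
ZC3H4, chr19:47113777-47114026, minus strand: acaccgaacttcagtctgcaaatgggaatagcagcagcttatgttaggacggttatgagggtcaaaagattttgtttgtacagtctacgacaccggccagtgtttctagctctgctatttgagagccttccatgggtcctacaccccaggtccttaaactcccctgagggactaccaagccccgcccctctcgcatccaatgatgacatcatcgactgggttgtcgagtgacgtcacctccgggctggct
DKK1, chr10:52314031-52314280, plus strand: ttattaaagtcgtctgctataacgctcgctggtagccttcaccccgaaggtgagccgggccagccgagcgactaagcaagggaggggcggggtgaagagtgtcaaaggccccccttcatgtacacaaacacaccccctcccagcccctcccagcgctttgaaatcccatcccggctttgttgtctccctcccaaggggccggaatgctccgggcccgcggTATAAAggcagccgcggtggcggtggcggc
CYP1A1, chr15:74725529-74725778, minus strand: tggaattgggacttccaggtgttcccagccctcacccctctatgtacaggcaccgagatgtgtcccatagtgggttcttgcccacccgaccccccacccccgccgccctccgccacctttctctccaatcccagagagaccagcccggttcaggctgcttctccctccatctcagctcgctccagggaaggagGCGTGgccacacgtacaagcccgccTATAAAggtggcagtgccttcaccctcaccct
JUNB, chr19:12791236-12791485, plus strand: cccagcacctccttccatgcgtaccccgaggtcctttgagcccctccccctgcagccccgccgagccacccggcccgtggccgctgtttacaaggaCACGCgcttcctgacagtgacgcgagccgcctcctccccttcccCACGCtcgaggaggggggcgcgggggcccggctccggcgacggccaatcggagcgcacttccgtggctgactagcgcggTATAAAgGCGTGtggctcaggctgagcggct
IER2, chr19:13150161-13150410, plus strand: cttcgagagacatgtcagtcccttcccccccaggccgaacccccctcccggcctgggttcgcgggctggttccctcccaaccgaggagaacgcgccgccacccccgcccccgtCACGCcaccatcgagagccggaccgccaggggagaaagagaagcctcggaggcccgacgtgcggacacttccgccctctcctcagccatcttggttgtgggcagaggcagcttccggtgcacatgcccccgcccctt
TATAAA stood in the windows of DKK1, CYP1A1 and JUNB, and GCGTG in those of CYP1A1, JUNB and IER2. Among all 35116 such windows in the RefSeq table, 10.7% held TATAAA and 32.2% held GCGTG. With 1 window per gene, 5.11% of the 9616 genes tested that had one held TATAAA, against 4.5% of the 778 that fell at least 2-fold on both scales described next and 9.72% of the 72 that rose on both. GCGTG was in 46.0% of all 9616, in 45% of the 778 and in 47.2% of the 72. These shares describe letters in a window and say nothing about the binding of a factor.

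With 1 rescaling factor for the whole table, set to bring the average library sum to 1e+06, a value of 1 stood for 12.2 to 21.1 reads in BxPC-3. Library depth was 16490481 to 17002050 reads with THZ1 and 13278119 to 16940307 with DMSO. Each deposited value is a read count over 1 divisor per library. The BxPC-3 divisors were 227, 215 and 219 with THZ1 and 373, 290 and 307 with DMSO. Sums of the deposited values were therefore larger in every THZ1 library than in every DMSO library. Rises in these values include this difference in sums. Within each BxPC-3 group, libraries correlated at 0.996 or above across genes. PANC-1 DMSO replicate 1 stood apart in the series, with 6352482 reads and a log2 residual SD of 0.52, where the BxPC-3 libraries had 0.10 to 0.13. SMAD4, which this line is known to lack, had 1, 2 and 3 reads with THZ1 and 3, 1 and 4 with DMSO, against at least 80 in every library of the other lines. Of 10 ductal epithelial markers, 9 were in the table, and their summed value was 8706 to 9106 with THZ1 and 4548 to 4922 with DMSO. These marker sums were not adjusted for the larger library sums with THZ1. Relative to the ERCC total, the median log2 change of the 9 markers was -0.31. The summed markers of fibroblasts, endothelium, leukocytes, acinar and islet cells were at most 19.2 with THZ1 and at most 10.7 with DMSO, and 4 of 10, 2 of 8, 3 of 10, 3 of 10 and 1 of 7 of these markers were in the table.

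The summed ERCC value was 5043, 5768 and 5157 in the THZ1 libraries and 2385, 2495 and 2111 in the DMSO libraries, a log2 difference of 1.19 (SE 0.09, exact two-sided permutation p = 0.1, the smallest that 3 against 3 allows). Endogenous reads per ERCC read were 262, 234 and 261 with THZ1 and 336, 323 and 383 with DMSO, a difference of -0.46. Changes were therefore computed on 2 scales, as deposited and relative to the ERCC total, and neither was taken as the true one. A change given without a scale is on the deposited one. The directions below are those of the deposited scale, and the list medians are to be read against its median over all genes. A gene is said to have risen or fallen where limma's adjusted p was under 0.05 on the deposited scale. Log2 changes are of the value plus 1, which understates the changes of low genes, and values are not per length, so a gene's value stands for its reads and is not a measure of transcript abundance against other genes. On the deposited scale 6147 genes (40.0% of those tested) rose and 2908 (18.9%) fell, with a median log2 change of 0.25. The counts of every gene list below are to be read against these shares. The shares depend on the spread of all 18 libraries. Fitted to the BxPC-3 libraries alone, 7721 genes rose and 3753 fell. A fit without PANC-1 DMSO replicate 1 gave 7582 and 3654. Scaled to equal library sums the split was 1434 higher and 6567 lower with a median of -0.29, and with TMM factors it was 3972 and 4284 with a median of 0.017. On the ERCC scale only 207 genes (1.35%) rose and 9067 (59.1%) fell, with a median of -0.64. All 2908 genes that fell on the deposited scale also fell on the ERCC scale, as did 1893 genes (12.3% of those tested) that rose on the deposited scale. All 207 that rose on the ERCC scale rose on the deposited scale too. At least 2-fold changes on the deposited scale were found in 1597 genes (10.4%) upward and 1051 (6.85%) downward. THZ1 and DMSO libraries did not overlap in 7846 genes (51.1%) with THZ1 higher and in 3845 (25.0%) with THZ1 lower; on the ERCC scale these counts were 427 (2.78%) and 11297 (73.6%).

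The steepest falls included regulators of transcription and RNA processing, targets of the aryl hydrocarbon receptor and a secreted Wnt antagonist. ZC3H4, which helps to end transcription of non-coding regions early, had values of 7.94, 7.89 and 7.83 in the THZ1 libraries, against 103, 108 and 103 in the DMSO libraries (log2 change -3.57, SE 0.08, limma adjusted p = 8.45e-14; ERCC scale -4.63). ZBED5, a gene derived from a DNA transposon, had 1.79, 2.3 and 1.78 in the THZ1 libraries, against 30.9, 28 and 29.2 in the DMSO libraries, a change of -3.36. The THZ1 and DMSO libraries of both genes did not overlap. DKK1, a secreted inhibitor of Wnt receptors, stood at 10.7, 8.96 and 10.7 in the THZ1 libraries, against 105, 101 and 106 in the DMSO libraries (log2 change -3.24, SE 0.20, limma adjusted p = 1.64e-09; ERCC scale -4.33). CYP1A1 and CYP1B1, cytochrome P450 enzymes induced through the aryl hydrocarbon receptor, followed. CYP1A1 values were 5.76, 3.78 and 4.04 with THZ1 and 40.9, 43.3 and 42.2 with DMSO, a change of -2.98. For CYP1B1 they were 20.9, 18.7 and 21.8 with THZ1 and 159.8, 145 and 144 with DMSO, a change of -2.81. Of 23 genes of the receptor and of xenobiotic defence, 7 rose (30.4%, against 40.0% of all genes) and 6 fell (26.1%, against 18.9%; medians 0.18 and -1.0 on the ERCC scale). OSGIN1, an oxidative stress gene, changed by -2.2, while FTL and FTH1, the ferritin subunits, rose by 1.28 and 1.29 and changed by 0.09 and 0.10 on the ERCC scale with no call there.

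Other genes among the 15 steepest falls have roles in trafficking, polarity and repression. HPS6 and BLOC1S3 encode parts of complexes that build lysosome-related organelles. HPS6 had 4.05, 3.78 and 2.99 in the THZ1 libraries, against 32.5, 34 and 32.7 in the DMSO libraries (-2.89). BLOC1S3 had 3.5, 2.96 and 2.74 in the THZ1 libraries, against 21, 24 and 24.1 in the DMSO libraries (-2.56). VANGL1, a planar cell polarity protein, changed by -2.56, and TGIF2, a homeobox repressor that limits TGF-beta signalling, by -2.85. The co-repressor IRF2BP1 and the genes SOGA1 and MOB3A changed by -2.64, -2.58 and -2.52. All 427 genes lower by at least 2-fold that met the naming rule fell on the ERCC scale too, as the rule required.

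The genes of this paragraph had the highest values, not adjusted for length, among those that fell at least 2-fold and met the rule. TNS4, a tensin of focal adhesions, had 82.2, 93.1 and 87.7 in the THZ1 libraries, against 498, 496 and 476 in the DMSO libraries (log2 change -2.47, SE 0.28, limma adjusted p = 1.21e-06; ERCC scale -3.65). LINC00657, a non-coding RNA that binds Pumilio proteins, had 188, 186 and 170.1 in the THZ1 libraries, against 403, 379 and 376 in the DMSO libraries (-1.09). SLC38A2, an amino acid transporter, had 155, 138 and 135 in the THZ1 libraries, against 412, 366 and 365 in the DMSO libraries (-1.41). In each of these genes every THZ1 library lay below every DMSO library. KMT2D, a histone H3 lysine methyltransferase of enhancers, changed by -1.17, the LIM protein AJUBA by -1.39, the giant cadherin FAT2 by -1.31, the forkhead factor FOXK1 by -1.14, and MAT2A, which makes S-adenosylmethionine, by -1.01. PRR12 and C19orf48 changed by -1.44 and -1.59.

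The rises that held on both scales included immediate early genes, genes of RNA handling and several non-coding entries, the largest being those of LINC00926 and of the multi-copy rows given in the next paragraph. JUNB, an AP-1 subunit, had 501, 548 and 541 in the THZ1 libraries, against 107, 114 and 109 in the DMSO libraries (log2 change 2.26, SE 0.14, limma adjusted p = 1.5e-09; ERCC scale 1.07, adjusted p = 3.08e-06). IER2, an immediate early gene, had 125, 135 and 127 in the THZ1 libraries, against 23.9, 25.3 and 27.9 in the DMSO libraries (2.28; ERCC 1.11). IER3, another immediate early gene that modulates cell survival, had 411, 447 and 423 in the THZ1 libraries, against 110.2, 116 and 112 in the DMSO libraries (1.91; ERCC 0.73). All 3 THZ1 libraries lay above all 3 DMSO libraries in each. GADD45B, a stress-induced regulator of MAP kinase signalling, had 50.9, 53 and 55.2 in the THZ1 libraries, against 9.95, 12.3 and 11.8 in the DMSO libraries (2.13; ERCC 0.99). TNFRSF10D, a decoy receptor for the death ligand TRAIL, had 252, 256 and 263 in the THZ1 libraries, against 37.1, 41.5 and 36.8 in the DMSO libraries (2.71; ERCC 1.53). These groups did not overlap either.

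Genes of RNA handling also rose on both scales. NXF1, the main export receptor for mRNA, had 356, 365 and 361 in the THZ1 libraries, against 69.4, 70.5 and 74.7 in the DMSO libraries (2.32; ERCC 1.13). SRRT, which joins the cap-binding complex to RNA processing, had 708, 725 and 749.7 in the THZ1 libraries, against 179, 196 and 197 in the DMSO libraries (1.93; ERCC 0.74). POLR2A, the largest subunit of RNA polymerase II and the substrate of CDK7, had 1504, 1517 and 1528 in the THZ1 libraries, against 487, 493 and 498 in the DMSO libraries (1.62; ERCC 0.43, adjusted p = 0.0122). The groups were apart in all 3 genes. Without DMSO replicate 2 the ERCC-scale call of POLR2A was lost (0.38, limma adjusted p = 0.0519). RBM33, an RNA-binding protein, rose by 2.30 (ERCC 1.11), and C1orf63 rose by 2.57 (ERCC 1.39). OAZ1, the antizyme that limits polyamine synthesis, rose by 1.63 (ERCC 0.44), and the collagenase MMP1 by 1.65 (ERCC 0.46). On the ERCC scale the call of OAZ1 was lost without DMSO replicate 1 (adjusted p = 0.0652) and that of MMP1 without THZ1 replicate 1 or 3 or DMSO replicate 1 or 2 (adjusted p 0.0742 to 0.0889). LINC00926, a non-coding RNA, had the largest rise of the genes that met the rule, 3.90 (ERCC 2.82), and NNAT, an imprinted proteolipid gene, rose by 3.01 (ERCC 1.88). The entries MIR3648, MIR3687, MIR663A and RNA5_8SP6 rose by 3.25, 3.21, 3.16 and 3.42; their sequences occur in many copies and NME1_NME2 (2.44) overlaps its 2 parent genes, so the assignment of reads to these 5 rows is uncertain.

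**Figure D1:**
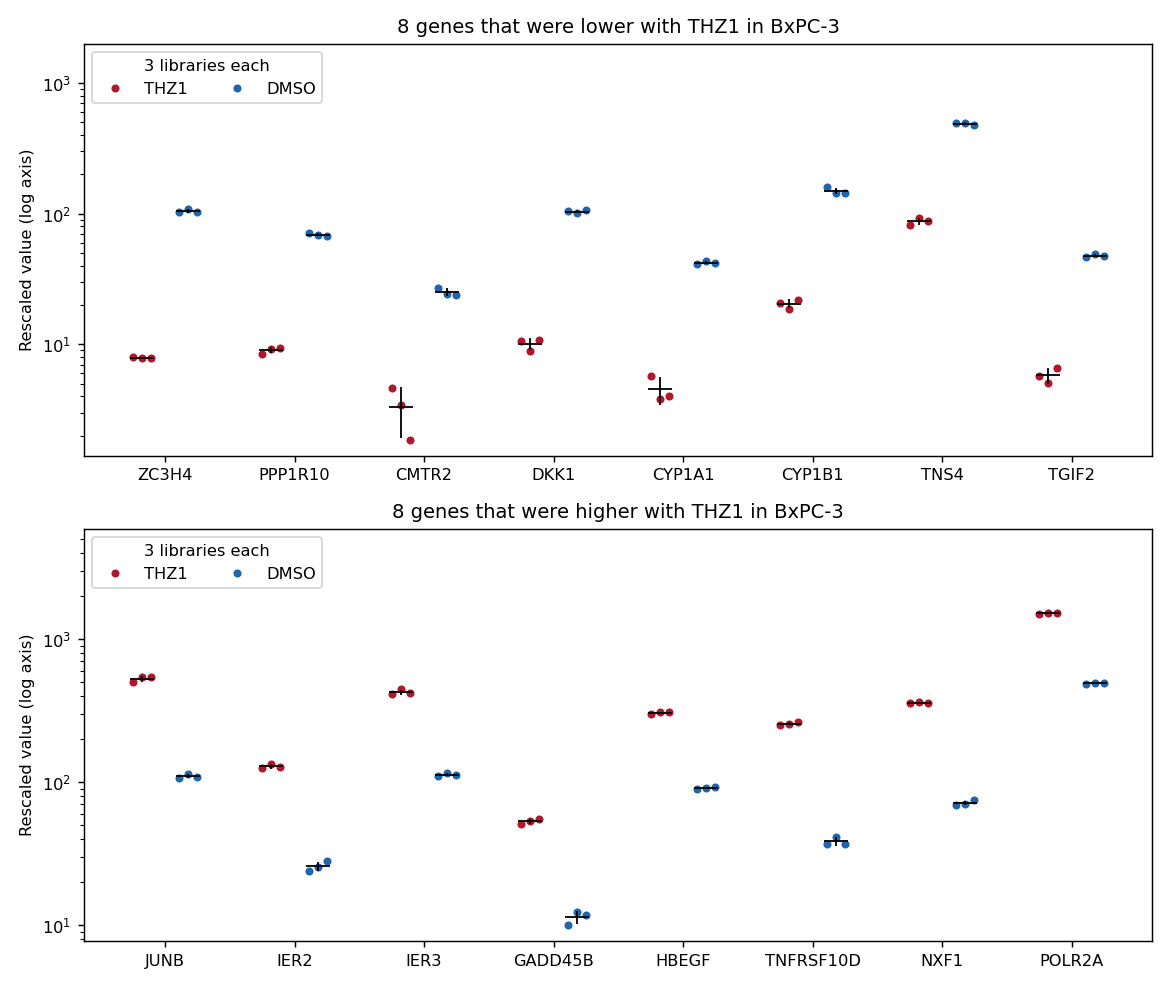
The vertical axes give the rescaled deposited value on a log axis for each library of BxPC-3, with THZ1 libraries to the left of DMSO libraries for each gene; dots are libraries, horizontal marks are means and vertical bars are SD (n = 3). In the 8 genes of the upper panel all THZ1 libraries lie below the DMSO libraries, as for TNS4 at 82.2 to 93.1 against 476 to 498, and in the 8 genes of the lower panel all lie above, as for JUNB at 501 to 548 against 107 to 114.

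The kinases that THZ1 binds changed by less than 2-fold on the deposited scale, while CDK7 and CDK12 were more than 2-fold lower on the ERCC scale. CDK7 had 11.2, 10.5 and 8.72 in the THZ1 libraries, against 14.4, 14.1 and 13.4 in the DMSO libraries (log2 change -0.43, SE 0.14, limma adjusted p = 0.0155; ERCC -1.50, adjusted p = 6.84e-06). CDK12 changed by -0.25 (adjusted p = 0.0428; ERCC -1.42) and CDK9, the kinase of P-TEFb, by -0.30 (adjusted p = 0.0341; ERCC -1.46). The calls on the deposited scale lay near the threshold. That of CDK7 was lost without THZ1 replicate 3 (-0.33, limma adjusted p = 0.0808), that of CDK12 without any library but DMSO replicate 2 (adjusted p 0.0644 to 0.164) and that of CDK9 without any 1 of the 6 libraries (adjusted p 0.0536 to 0.0931). CDK13 changed by 0.29 without a call (adjusted p = 0.16; ERCC -0.88). Of the 14 kinases and cyclin partners tested, 8 rose (57.1%, against 40.0% of all genes) and 3 fell (21.4%, against 18.9%), with a median of 0.59 (-0.55 on the ERCC scale). The cyclins T of P-TEFb, CCNT1 and CCNT2, rose by 0.86 and 0.85 and changed by -0.31 and -0.30 on the ERCC scale with no call. CDK11A rose on both scales (1.61; ERCC 0.73), but it has a near-identical copy, CDK11B, with which it can share reads, and its ERCC-scale call was lost without THZ1 replicate 2 or DMSO replicate 2 (adjusted p = 0.0603 and 0.0673).

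Enzymes of early termination and of the cap moved in both directions. Of 18 such genes, 10 rose (55.6%, against 40.0% of all genes) and 6 fell (33.3%, against 18.9%), with a median of 0.45 (-0.72 ERCC). Their median value was 64.3. Of genes with values of 50 to 100, ribosomal, mitochondrial and zinc finger genes left out, 59.3% rose and 13.8% fell. The 3 steepest falls of this list were ZC3H4, PPP1R10 and CMTR2. PPP1R10, the phosphatase subunit PNUTS that acts in termination, had 8.49, 9.21 and 9.45 in the THZ1 libraries, against 71, 69.2 and 67.7 in the DMSO libraries (-2.81; ERCC -3.88). CMTR2, which methylates the ribose of the second transcribed nucleotide of capped RNA, had 4.6, 3.45 and 1.86 in the THZ1 libraries, against 27.1, 24.3 and 23.9 in the DMSO libraries (-2.65; ERCC -3.56). THZ1 libraries of both genes lay below all DMSO libraries. CXXC1, a CpG-binding subunit of SET1 methyltransferases, and SCAF4, which restrains early polyadenylation, rose by 0.81 and 1.11 but changed by -0.36 and -0.06 on the ERCC scale, where CXXC1 was called lower. Among 24 genes of elongation and pausing, 11 rose and 6 fell (medians 0.33 and -0.84). MEPCE, which caps the 7SK RNA that holds P-TEFb inactive, had 35.8, 39.7 and 36.3 in the THZ1 libraries, against 135, 149 and 146 in the DMSO libraries (-1.91; ERCC -3.07). IWS1, a partner of SPT6, changed by -1.40, and BRD3 by -0.49. SUPT5H of the pausing factor DSIF and the elongation factor ELL rose by 1.06 and 0.92, with ERCC changes of -0.13 and -0.23 that were not called.

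Immediate early genes did not share a direction. They are transcribed within minutes of a stimulus, and their transcripts are short-lived. Of 29 tested, 15 rose (51.7%, against 40.0% of all genes) and 7 fell (24.1%, against 18.9%), and the median was 0.35 (-0.72 ERCC). The median value of this list was 77.3, and of genes with values of 50 to 100, 59.3% rose and 13.8% fell. On both scales 4 rose, namely JUNB, IER2, IER3 and IER5L, a relative of IER2 added after its values were seen (1.83; ERCC 0.66, a call lost without THZ1 replicate 3, limma adjusted p = 0.0518). The AP-1 subunit JUND had 16.7, 20.7 and 20.6 in the THZ1 libraries, against 53.7, 55.1 and 57.8 in the DMSO libraries (-1.48, limma adjusted p = 2.33e-07; ERCC -2.61). KLF4, a zinc finger factor of epithelial cells, had 12.7, 13.7 and 12.5 in the THZ1 libraries, against 37.9, 35.6 and 34.9 in the DMSO libraries (-1.41). FOSL2, an AP-1 subunit, had 60.4, 59.5 and 60.8 in the THZ1 libraries, against 143, 134 and 141 in the DMSO libraries (-1.20). Their groups did not overlap, with THZ1 lower. FOSL1, a further AP-1 subunit, had 143, 147 and 143 in the THZ1 libraries, against 139, 136 and 141 in the DMSO libraries, a change of 0.06 (adjusted p = 0.767) that was -1.13 on the ERCC scale.

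In growth factor signalling, EGFR, ERBB3 and several feedback inhibitors fell, while HBEGF, SPRY4 and MAP2K1 rose. EGFR, the epidermal growth factor receptor, had 359.7, 339.5 and 331 in the THZ1 libraries, against 570.1, 496 and 522 in the DMSO libraries (log2 change -0.62, SE 0.21, limma adjusted p = 0.0168; ERCC -1.81). Without DMSO replicate 1 the EGFR change was -0.57 with limma adjusted p = 0.0574. ERBB3, a receptor of the same family, changed by -0.57, and without THZ1 replicate 1 by -0.50 with adjusted p = 0.0544. HBEGF, a ligand of EGFR, had 302, 309 and 310.0 in the THZ1 libraries, against 89.2, 91.1 and 92.1 in the DMSO libraries (1.75; ERCC 0.56, adjusted p = 0.00805). THZ1 and DMSO libraries of EGFR and HBEGF did not overlap. The ligand BTC and the receptor inhibitor LRIG1 rose by 0.64 and 0.77 with ERCC changes of -0.37 and -0.36. Over the family, 3 of 14 rose (21.4%) and 4 fell (28.6%). In the RAS and ERK list 12 of 31 rose and 12 fell, 38.7% in each direction, against 40.0% and 18.9% of all genes. SPRY1, a feedback inhibitor of receptor signalling, had 1.56, 1.4 and 0.888 in the THZ1 libraries, against 7.49, 7.32 and 7.03 in the DMSO libraries (-1.87). DUSP6, a phosphatase of ERK, had 53.7, 56.1 and 50.1 in the THZ1 libraries, against 124, 117 and 125 in the DMSO libraries (-1.18; ERCC -2.35). DUSP16, which acts on JNK and p38, changed by -1.59. Among the 8 DUSP genes of the list, a family picked after its values were seen, 7 fell, where 18.9% of all genes did. The other, DUSP5, rose by 0.35 (ERCC -0.80, called lower there). SPRY4, another Sprouty inhibitor, had 47.2, 42 and 43.5 in the THZ1 libraries, against 13, 13.2 and 15.8 in the DMSO libraries (1.60; ERCC 0.45, adjusted p = 0.0269); without THZ1 replicate 1 or 3 or DMSO replicate 1 or 2 this ERCC-scale p was 0.0654 to 0.112. PHLDA2, an imprinted gene of a small PH-domain protein, rose by 1.80 (ERCC 0.63), and MAP2K1, the kinase MEK1, by 1.32 (ERCC 0.13, no call). MYC, the growth-promoting factor often singled out in studies of CDK7 inhibitors, had 58.9, 58.3 and 58.2 in the THZ1 libraries, against 115, 113 and 114 in the DMSO libraries (-0.95, adjusted p = 9.57e-08; ERCC -2.12). Its network held 6 rises and 5 falls of 15. MXD1, which opposes MYC, rose by 1.79 (ERCC 0.61, a call lost without THZ1 replicate 1 or 3 or DMSO replicate 2, adjusted p 0.0564 to 0.0975), while MLX and MYCL changed by -1.50 and -0.96, and ZBTB17 and MYCBP rose by 0.91 and 0.78 (ERCC -0.25 and -0.36, no call).

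In Wnt signalling falls outnumbered rises. Wnt ligands bind frizzled receptors and stabilise beta-catenin, and DKK1 blocks a co-receptor. Of 33 genes, 7 rose (21.2%, against 40.0% of all genes) and 14 fell (42.4%, against 18.9%), with a median of -0.11 (-1.16 ERCC). FZD8 had 3.66, 3.37 and 3.55 in the THZ1 libraries, against 15.8, 15.5 and 14.7 in the DMSO libraries (-1.85), and FZD5 had 4.44, 3.78 and 5.41 in the THZ1 libraries, against 17.6, 16.2 and 16.3 in the DMSO libraries (-1.68). Neither receptor's groups overlapped. Of all 8 frizzled genes tested, a family picked after its values were seen, 6 fell, where 18.9% of all genes did. These were FZD1, FZD2, FZD4, FZD5, FZD7 and FZD8, with changes of -1.41, -1.39, -0.93, -1.68, -0.72 and -1.85, and each has a coding transcript of 1 or 2 exons in the annotation used. FZD3 and FZD6, with 7 exons each, changed by 0.05 and 0.49 without a call. The DUSP genes differed from this, as the 7 that fell have 3 to 7 exons, with 7 in DUSP8 and DUSP16. A link of exon number to the change was not tested in either family. CTNNB1, beta-catenin itself, and WLS and PORCN, needed for Wnt secretion, rose by 1.12, 0.96 and 0.93 and changed by -0.07, -0.21 and -0.26 on the ERCC scale with no call.

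In Notch signalling 9 of 23 genes rose (39.1%, against 40.0% of all genes) and 5 fell (21.7%, against 18.9%), close to the shares over all genes. The receptor NOTCH1 had 73.2, 77 and 82.9 in the THZ1 libraries, against 169.7, 165 and 175 in the DMSO libraries (-1.12; ERCC -2.30), and NOTCH3 and NUMBL, a Notch antagonist, changed by -1.03 and -0.92. NRARP, a feedback inhibitor of Notch, had 135, 136 and 140.0 in the THZ1 libraries, against 43.8, 43.9 and 42 in the DMSO libraries (1.64; ERCC 0.46, adjusted p = 0.0182). The NOTCH1 and NRARP groups were apart, in opposite directions. The ERCC-scale call of NRARP was lost without THZ1 replicate 1 or 3 or DMSO replicate 2 (adjusted p 0.0555 to 0.0624). Among TGF-beta and BMP genes, 13 of 31 rose (41.9%) and 6 fell (19.4%). SMAD6, an inhibitor of BMP signalling, had 1.4, 1.64 and 0.646 in the THZ1 libraries, against 10.6, 11.9 and 11.3 in the DMSO libraries (-2.49; ERCC -3.19). TGIF2 had 5.76, 5.02 and 6.62 in the THZ1 libraries, against 46.9, 48.8 and 47.6 in the DMSO libraries (-2.85; ERCC -3.87). TGFB1, the ligand, and its binding proteins LTBP1 and LTBP3 rose by 1.17, 0.99 and 0.98, with ERCC changes of -0.02, -0.19 and -0.20 that were not called. In the YAP and TEAD list, 12 of 26 rose and 6 fell. AJUBA had 118, 117 and 122 in the THZ1 libraries, against 305, 317 and 318 in the DMSO libraries, AMOTL2, an angiomotin that holds YAP in the cytoplasm, changed by -0.91, and CTGF, a YAP target with values under 5, rose by 0.92 (ERCC 0.07, no call).

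**Figure D2:**
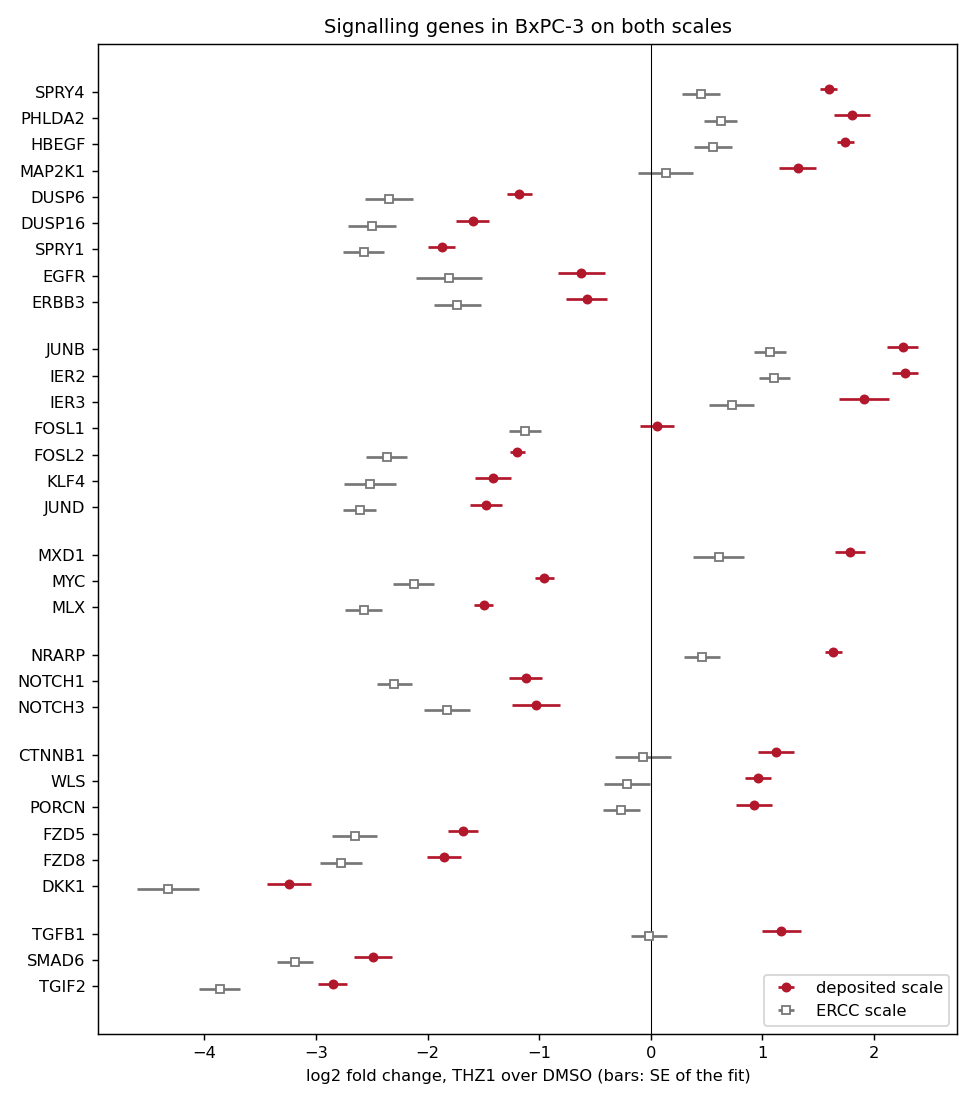
The horizontal axis gives the log2 fold change of THZ1 over DMSO in BxPC-3 for named genes of growth factor, immediate early, MYC, Notch, Wnt and TGF-beta signalling; filled circles are the deposited scale, open squares the ERCC scale, and bars the SE of the limma fit (n = 3 against 3). JUNB at 2.26 and 1.07 and HBEGF at 1.75 and 0.56 stay above 0 on both, DKK1 at -3.24 and -4.33 lies farthest below, and CTNNB1 at 1.12 and -0.07 crosses 0.

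Inflammatory and interferon genes moved in both directions. Of 28 genes of the NF-kB pathway and its targets, 10 rose (35.7%, against 40.0% of all genes) and 9 fell (32.1%, against 18.9%). The cytokine IL1A had 16.6, 18.3 and 16.3 in the THZ1 libraries, against 53.8, 48.9 and 50.2 in the DMSO libraries (-1.52; ERCC -2.65), and IL1B had 25.9, 22.3 and 25.3 in the THZ1 libraries, against 68.3, 69.3 and 66.9 in the DMSO libraries (-1.44; ERCC -2.58). Both were lower in all THZ1 libraries. MAP3K14, the kinase of the non-canonical pathway, changed by -1.19, and the subunit NFKB1 and the inhibitor NFKBIB rose by 0.89 and 0.93 (ERCC -0.29 and -0.25, no call). Of 48 interferon and antigen presentation genes, 20 rose (41.7%) and 15 fell (31.2%). IRF2, a factor that competes with other interferon regulatory factors, had 5.14, 4.6 and 4.28 in the THZ1 libraries, against 24.5, 23.2 and 20.8 in the DMSO libraries (-2.07). DDX58, the RNA sensor RIG-I, had 7.48, 7.57 and 8.31 in the THZ1 libraries, against 33.6, 31 and 38.2 in the DMSO libraries (-2.0). IFIT5, an interferon-induced RNA-binding protein, changed by -2.13. The class I genes HLA_A, HLA_B and HLA_C rose by 1.35, 1.27 and 1.28, with ERCC changes of 0.17, 0.13 and 0.09 that were not called; their reads can be shared among related class I genes.

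In the list of the BCL2 family and inhibitors of apoptosis, 6 of 19 rose (31.6%, against 40.0% of all genes), 2 fell (10.5%, against 18.9%) and 11 had no call, so both counts were near the shares over all genes. MCL1, a short-lived survival protein, had 203, 189.6 and 192 in the THZ1 libraries, against 257, 239.9 and 253 in the DMSO libraries (-0.36, limma adjusted p = 0.0937; ERCC -1.54, adjusted p = 4.87e-05). Its THZ1 libraries lay below its DMSO libraries, although the change had no call on the deposited scale. The falls were BMF and BIRC3 (-1.12 and -0.54). The death-promoting genes PMAIP1, BBC3 and BID rose by 0.91, 0.89 and 0.84, with ERCC changes of -0.21, -0.13 and -0.31 that were not called. Among p53 targets and regulators, 8 of 25 rose (32.0%) and 4 fell (16%). CDKN1A, the cell cycle inhibitor p21, had 98.3, 101 and 97 in the THZ1 libraries, against 75.4, 73.6 and 75.6 in the DMSO libraries (0.39; ERCC -0.78, called lower). On the deposited scale the CDKN1A call was lost without THZ1 replicate 2 or DMSO replicate 2 (0.38 in both, limma adjusted p = 0.0554 and 0.0544). AEN, a nuclease of apoptosis, and XPC, a sensor of DNA damage, changed by -0.65 and -0.60.

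Among transcription factors of pancreatic and squamous identity, falls outnumbered rises. Of 28 tested, 3 rose (10.7%, against 40.0% of all genes) and 11 fell (39.3%, against 18.9%), and the median was -0.31 (-1.27 ERCC). BHLHE41, a repressor of the clock, had 2.26, 3.12 and 3.23 in the THZ1 libraries, against 13.9, 12.7 and 13.4 in the DMSO libraries (-1.90). TP73, a p53-related factor, had 3.66, 3.37 and 5.41 in the THZ1 libraries, against 17.6, 15.9 and 17.2 in the DMSO libraries (-1.82). GATA4, a factor of foregut development, had 0.857, 0.658 and 0.242 in the THZ1 libraries, against 4.6, 4.94 and 4.32 in the DMSO libraries (-1.84). The groups of all 3 were apart. HMGA1, a chromatin protein abundant in tumours, and STAT3, a factor downstream of cytokine receptors, rose by 1.33 and 1.00, and changed by 0.14 and -0.18 on the ERCC scale with no call.

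Epithelial structural genes mostly rose on the deposited scale. Among keratins and junction genes 18 of 25 rose (72.0%, against 40.0% of all genes) and 1 fell (4.0%, against 18.9%), with medians of 0.66 and -0.38. The median value of this list was 122.0, and of the 1115 genes with values of 100 to 200, ribosomal, mitochondrial and zinc finger genes left out, 74.0% rose. KRT8 had 1889, 1987 and 1992 in the THZ1 libraries, against 659, 713 and 737 in the DMSO libraries (1.48; ERCC 0.28, no call), and KRT18 and CDH1, E-cadherin, rose by 1.29 and 1.03 (ERCC 0.11 and -0.16, no call). KRT19, a marker of duct cells, had 1913, 2012 and 1984 in the THZ1 libraries, against 1359, 1525 and 1525 in the DMSO libraries (0.42; ERCC -0.77, called lower). ESRP2, an epithelial splicing factor, had 33.8, 35.9 and 36.7 in the THZ1 libraries, against 54.3, 56.9 and 53 in the DMSO libraries (-0.61). Groups of KRT8, KRT19 and ESRP2 did not overlap. Integrins, laminins and matrix genes had 25 rises (67.6%, against 74.0% of genes with values of 100 to 200) and 1 fall (2.7%, against 5.11%) among 37. TIMP1, an inhibitor of metalloproteinases, rose by 1.44 (ERCC 0.25, no call) and ITGB8 changed by -0.67. Of 12 markers of tumour subtypes 8 rose and 1 fell; the fall was TNS4, while the basal marker S100A2 and the classical markers CEACAM5 and CEACAM6 rose by 1.34, 1.21 and 1.29 (ERCC 0.15, 0.03 and 0.11, no call). Mucins and S100 genes had 7 rises and 1 fall among 15; S100A6 and S100A11 rose by 1.42 and 1.28 (ERCC 0.23 and 0.09, no call) and MUC6 changed by -1.04. Of 9 mesenchymal genes tested, at a median value of 2.54, 4 rose, among them TGFBI, a secreted matrix protein, which rose by 0.96 (ERCC -0.23, no call). SNAI1, a repressor of E-cadherin, had 4.52, 4.28 and 5.17 in the THZ1 libraries, against 0.521, 0.244 and 0.518 in the DMSO libraries (1.99; ERCC 1.21, adjusted p = 4.08e-06), and its DMSO values rest on 11, 4 and 9 reads.

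In protein quality control and metabolism, most listed genes rose on the deposited scale and a few regulators fell. Among 31 proteasome subunits 29 rose (93.5%, against 40.0% of all genes and 74.0% of genes with values of 100 to 200; median 0.85, ERCC -0.33). PSMD2 had 1268, 1296 and 1291 in the THZ1 libraries, against 474, 505 and 517 in the DMSO libraries (1.36; ERCC 0.17, no call), and PSMA7 and PSMB7 rose by 1.34 and 1.21 (ERCC 0.15 and 0.03, no call). Of 22 endoplasmic reticulum chaperones and sensors, 17 rose (77.3%, against 59.3% of genes with values of 50 to 100) and 2 fell (9.09%, against 13.8%). The falls were XBP1, the factor of the unfolded protein response, and the co-chaperone DNAJB9. XBP1 had 13.5, 11.5 and 15.3 in the THZ1 libraries, against 41.8, 38.5 and 40.0 in the DMSO libraries (-1.52; ERCC -2.62), and DNAJB9 changed by -0.52, a call lost without any library but THZ1 replicate 3 (limma adjusted p 0.0577 to 0.0968). P4HB, PDIA6 and SEC61B rose by 1.17, 1.14 and 1.20, with ERCC changes of -0.02, -0.04 and 0.02 that were not called. Of 22 heat shock chaperones, 15 rose (68.2%) and 3 fell (13.6%). Their median value was 220.0, and of genes with values of 200 to 500, 83.5% rose and 3.86% fell. The co-chaperone DNAJB1 had 30.2, 29.4 and 27.4 in the THZ1 libraries, against 114, 119 and 119 in the DMSO libraries (-1.98; ERCC -3.13). HSPA8, the constitutive HSP70, had 1117, 1119 and 1115 in the THZ1 libraries, against 1806, 1816 and 1809.5 in the DMSO libraries (-0.70; ERCC -1.89). DNAJA1, the third fall, changed by -0.42, and by -0.39 without THZ1 replicate 3 (limma adjusted p = 0.059). HSP90AA1 and HSP90AB1 rose by 0.91 and 1.05 (ERCC -0.28 and -0.14, no call).

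The integrated stress response list held 17 rises (56.7%, against 59.3% of genes with values of 50 to 100) and 5 falls (16.7%, against 13.8%) among 30. CEBPB, a leucine zipper factor, had 32.9, 33.1 and 35.1 in the THZ1 libraries, against 126, 130.3 and 122 in the DMSO libraries (log2 change -1.87, limma adjusted p = 1.53e-10; ERCC -3.03). DDIT3, the factor CHOP, and DDIT4, an inhibitor of mTORC1, changed by -0.80 and -0.94, while PHGDH, ASNS and SHMT2 of serine and asparagine synthesis rose by 1.19, 1.09 and 1.05 (ERCC 0.01, -0.05 and -0.13, no call). In glycolysis and hypoxia 27 of 39 rose (69.2%, against 74.0% of genes with values of 100 to 200) and 1 fell (2.56%, against 5.11%). VEGFA, the angiogenic growth factor, had 292, 301 and 293 in the THZ1 libraries, against 113, 114 and 117 in the DMSO libraries (1.36; ERCC 0.17, no call), and the prolyl hydroxylase EGLN2 was the fall (-0.84; ERCC -1.88), while EGLN3 rose by 1.31 (ERCC 0.25, no call). In cholesterol and fatty acid synthesis 19 of 33 rose and 6 fell. INSIG1, which restrains sterol synthesis, and MVK, mevalonate kinase, changed by -1.05 and -0.97. Of 36 autophagy and lysosome genes 25 rose (69.4%, against 59.3% of genes with values of 50 to 100) and 1 fell (2.78%, against 13.8%). The fall was MITF, a factor of lysosome genes (-1.40; ERCC -2.41), and LAMP1, CTSL and CTSD rose by 1.25, 1.22 and 1.16 (ERCC 0.06, 0.03 and -0.03, no call).

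Mitosis genes had the highest share of falls among the 36 lists. Of 47 tested, 6 rose (12.8%) and 28 fell (59.6%), against 40.0% and 18.9% of all genes, and the median was -0.51 (-1.69 ERCC). KIF18B, a kinesin that shortens astral microtubules, had 14.8, 13.2 and 16.4 in the THZ1 libraries, against 79.1, 77.5 and 80.4 in the DMSO libraries (-2.34; ERCC -3.46). AURKA, a kinase of the spindle pole, had 32.2, 37.5 and 35.4 in the THZ1 libraries, against 109, 107 and 101 in the DMSO libraries (-1.57; ERCC -2.72). NDC80, which attaches kinetochores to microtubules, had 10.5, 8.88 and 9.53 in the THZ1 libraries, against 32.5, 32 and 28.2 in the DMSO libraries (-1.58). The groups of these 3 did not overlap. PRC1, a crosslinker of the central spindle, and BIRC5, survivin, rose by 0.72 and 0.58, with ERCC changes of -0.47 with no call and -0.57, called lower. Among 51 S phase and replication genes 25 rose and 15 fell, so this list was split. E2F8, POLD3 and GINS1 changed by -1.74, -1.50 and -1.17, and POLD2, MCM5 and TYMS rose by 1.10, 0.99 and 0.97 (ERCC -0.09, -0.20 and -0.19, no call). In homologous recombination and checkpoint repair 10 of 39 rose and 14 fell (35.9%). XRCC2, a gene of homologous recombination, had 4.75, 3.95 and 3.87 in the THZ1 libraries, against 21.2, 16 and 17.6 in the DMSO libraries (-1.89), and RAD52 had 3.19, 4.19 and 2.1 in the THZ1 libraries, against 13.7, 13.8 and 12.4 in the DMSO libraries (-1.81). THZ1 was lower in all libraries of both. FANCA, of the Fanconi anaemia core complex, rose by 0.83 (ERCC -0.36, no call). Among G1 cyclins and inhibitors 7 of 18 rose and 4 fell. The inhibitor CDKN1B, p27, had 19, 18.6 and 21.6 in the THZ1 libraries, against 39.2, 33.5 and 34.9 in the DMSO libraries (-0.83), CDKN2C changed by -0.85, and CDKN2D and CDK6 rose by 1.47 and 0.84 (ERCC 0.46 and -0.35, no call).

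Of 52 chromatin modifiers, 18 rose (34.6%, against 40.0% of all genes) and 17 fell (32.7%, against 18.9%), with a median of 0.00 (-1.17 ERCC). Their median value was 84.7, and of genes with values of 50 to 100, 59.3% rose and 13.8% fell. The remodeller CHD1 had 27.6, 26.6 and 23.4 in the THZ1 libraries, against 68.2, 64.3 and 69.3 in the DMSO libraries (-1.35). NSD1, a histone H3 lysine methyltransferase, had 68.1, 64.6 and 59.9 in the THZ1 libraries, against 175, 152 and 156 in the DMSO libraries (-1.31). KDM4A, a demethylase, changed by -1.23. THZ1 libraries lay below DMSO libraries in these 3 genes. The deacetylases HDAC1 and HDAC3 and the Polycomb methyltransferase EZH2 rose by 1.26, 0.91 and 1.06 (ERCC 0.07, -0.27 and -0.12, no call). Of 26 SR proteins and splicing kinases 13 rose and 3 fell. The falls were the kinases CLK2 and CLK4 and the SR protein SRSF3 (-0.71, -0.58 and -0.55), and RBM39, PNISR and TRA2B rose by 1.5, 1.34 and 1.18 (ERCC 0.31, 0.16 and -0.01, no call). In mRNA decay 15 of 34 rose and 5 fell. The decapping protein DCP1B had 1.87, 1.97 and 1.94 in the THZ1 libraries, against 9.91, 7.62 and 10.0 in the DMSO libraries (-1.79), and BTG2 and ZFP36L2, which promote deadenylation, changed by -1.12 and -0.67. The decapping enzyme DCP2 and the nonsense-mediated decay gene SMG5 rose by 1.06 and 1.07 (ERCC -0.11 in both, no call).

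**Figure D3:**
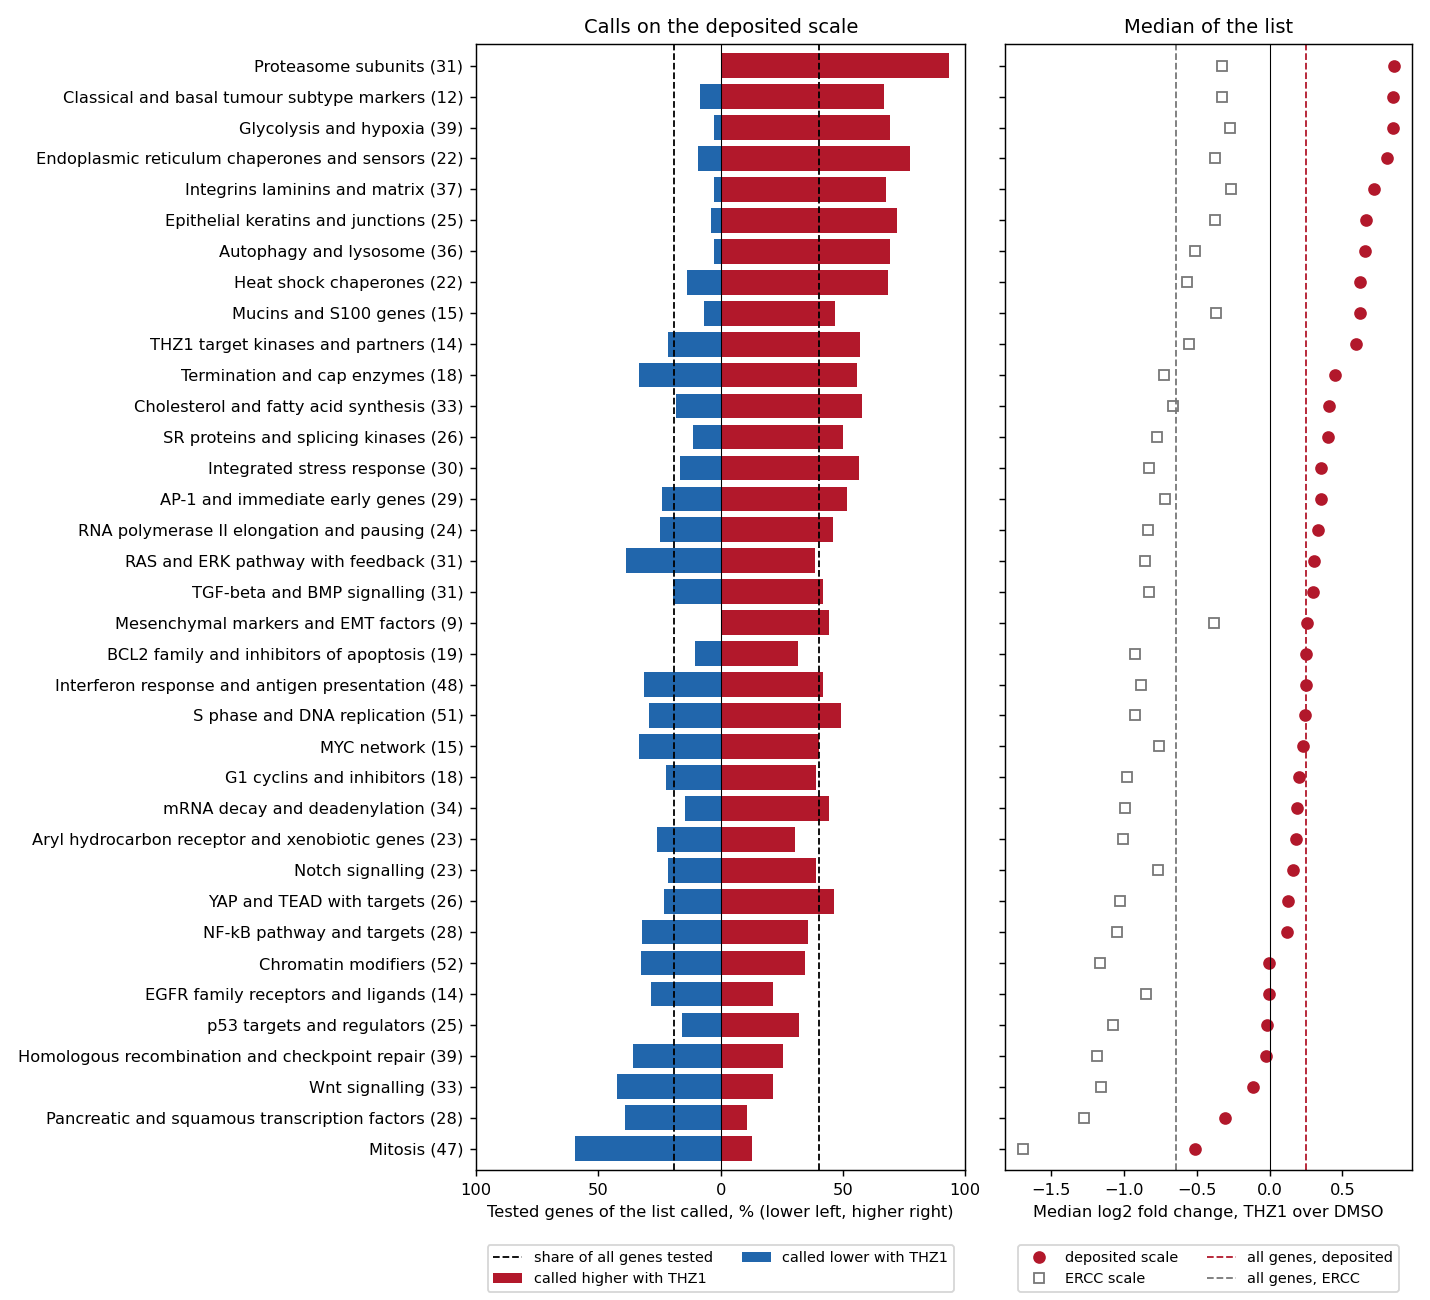
Rows are the 36 gene lists with the number of genes tested in brackets. On the left, bars to the right give the percentage of a list called higher with THZ1 and bars to the left the percentage called lower on the deposited scale, with dashed lines at the shares of all genes, 40.0% and 18.9%; on the right, circles and squares give the median log2 fold change of the list on the deposited and the ERCC scale, with dashed lines at the medians of all genes, 0.25 and -0.64. The order runs from proteasome subunits with a median of 0.85 to mitosis with -0.51, and every list median is below 0 on the ERCC scale.

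A further pattern, described after the values had been seen and without a test, runs with the structure and the value of genes. Exon numbers were taken from the longest coding transcript of each gene in GENCODE 29, leaving out histone genes and the ribosomal, mitochondrial and zinc finger families, which gave 11167 genes. Of 192 genes of 1 exon, 58.3% fell and 32.8% fell at least 2-fold, with a median of -0.55. Of 459 genes of 2 exons, 42.3% fell and 22.7% fell at least 2-fold, with a median of -0.26. Over all 11167 genes these shares were 19.9% and 7.11%, with a median of 0.25. Classes of 3 to 5, 6 to 10, 11 to 20 and 21 or more exons had medians of 0.23, 0.28, 0.28 and 0.28. Within genes at a mean value of 5 to 20, the median was -1.07 for 59 genes of 1 exon and 0.00 for 2352 genes of 3 or more. At 20 to 100 it was -0.60 for 52 genes of 1 exon and 0.34 for 4105 genes of 3 or more. On the ERCC scale genes of 1 exon had a median of -1.46, against -0.73 over all. Genes of 1 exon named above include HPS6, IRF2BP1, CEBPB, JUND and FZD8, which fell, and JUNB, IER2 and NRARP, which rose. Histone genes did not follow: of 52, most with 1 exon, 1.92% fell, with a median of 0.54, at a median value of 2.39. The 38 histone genes of 1 exon had a median value of 1.35, near the filter of 1, so their changes rest on low values.

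The value of a gene, which is not per length and so reflects read depth, also went with its change. This covers 14608 genes tested, without the ribosomal, mitochondrial and zinc finger families but with histone genes. Median changes were 0.13 at values under 5, 0.03 at values of 5 to 20, 0.23 at 20 to 50, 0.50 at 50 to 100, 0.71 at 100 to 200, 0.84 at 200 to 500 and 1.03 at 500 or more. On the ERCC scale the same classes had medians of -0.38, -1.03, -0.92, -0.67, -0.47, -0.35 and -0.16. The lists differed in this value. Its median was 124 for proteasome subunits, 110.0 for glycolysis and hypoxia and 220.0 for heat shock chaperones, against 60.6 for mitosis, 32.9 for Wnt signalling and 24.1 for the transcription factors of pancreatic and squamous identity. The medians of the first 3 lists, 0.85, 0.85 and 0.62, stand beside 0.71, 0.71 and 0.84 in their level classes, and those of mitosis, Wnt signalling and the transcription factors, -0.51, -0.11 and -0.31, beside 0.50, 0.23 and 0.23.

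**Figure D4:**
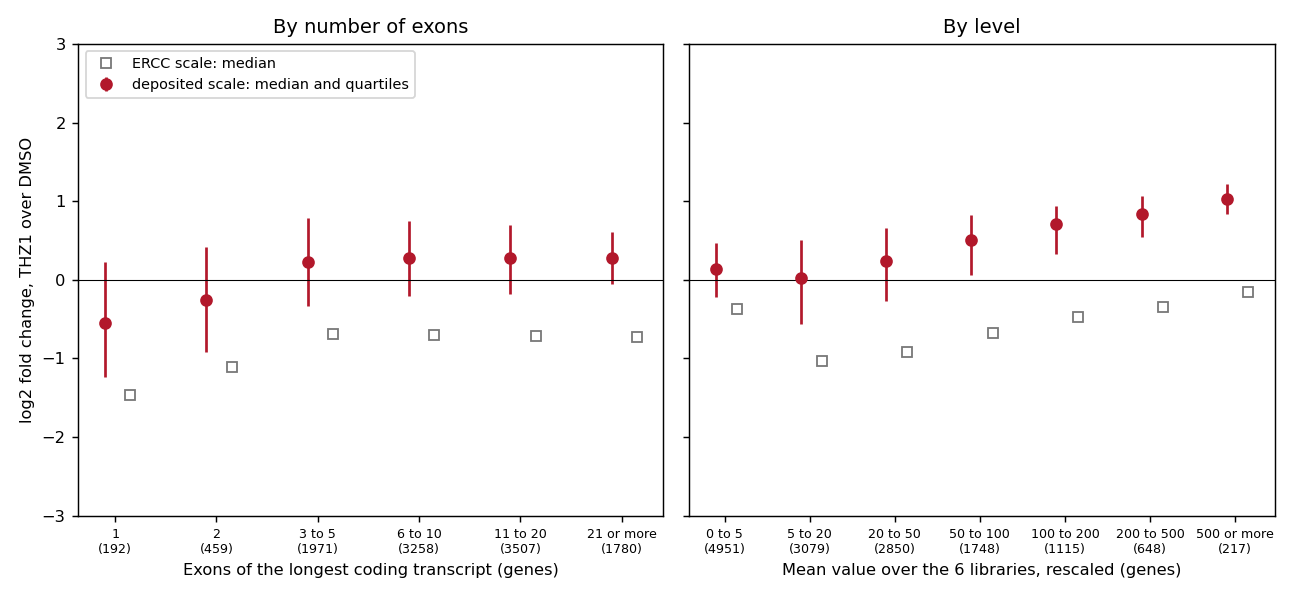
The vertical axes give the log2 fold change of THZ1 over DMSO in BxPC-3, on the left by the number of exons of the longest coding transcript and on the right by the mean value over the 6 libraries, with the number of genes in brackets; circles and bars are the median and quartiles on the deposited scale, squares the median on the ERCC scale. Genes of 1 exon have the lowest median, -0.55, and the median grows from 0.03 at values of 5 to 20 to 1.03 at 500 or more.

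The BxPC-3 response was set against those of MIA PaCa-2 and PANC-1 by testing the difference of the log2 changes. It differed from that of MIA PaCa-2 in 2118 genes (13.8%) and from that of PANC-1 in 6561 (42.7%); without PANC-1 DMSO replicate 1, the library that stood apart, these counts were 5426 and 8617. It differed from both in the same direction in 1190 genes (7.75%). In 680 genes (4.43%) the BxPC-3 change was above both others and in 510 (3.32%) below both, against 1980 and 1118 without that library. Sums of the deposited values were larger with THZ1 in BxPC-3 and MIA PaCa-2. In PANC-1 every THZ1 sum lay above those of DMSO replicates 2 and 3 but below that of DMSO replicate 1. The overlap in PANC-1 thus rests on the library that stood apart. Differences from PANC-1 include these differences in sums. With equal library sums, 2122 genes differed from MIA PaCa-2 and 5518 from PANC-1, with 169 above both and 934 below both. On the ERCC scale these counts were 1210, 4676, 90 and 303. Among genes with a mean of at least 20 in a BxPC-3 group and differences of at least 1 log2 unit from both lines, 54 were above and 53 below.

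DKK1 gave the largest difference below. Its change was -3.24 in BxPC-3, against -0.30 in MIA PaCa-2, with DMSO values of 31.6 to 35.8, and 0.22 in PANC-1, with DMSO values of 85.2 to 186. The differences were -2.94 and -3.46 (limma adjusted p = 6.34e-06 and 4.3e-07), in a gene expressed in all 3 lines. CYP1A1 differed by -2.67 and -3.05 and TNS4 by -2.10 and -2.16, but in the other lines their DMSO values were at most 2.37 and 7.89, where a fall has little room on the scale of the value plus 1. BLOC1S3, with DMSO values of 10.8 to 12 in MIA PaCa-2 and 12.1 to 24 in PANC-1, changed by -2.56 in BxPC-3, against -0.10 for MIA PaCa-2 and -0.49 for PANC-1. TIGD5, a gene derived from a transposase, changed by -2.52, -0.52 and -0.47.

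Above both lines, the largest differences were in the non-coding RP11_296I10_6 (1.97, against 0.06 in MIA PaCa-2 and -0.05 in the PANC-1 line) and in the row MIR24_2 (1.81, -0.27 and -0.08). In a library of polyadenylated RNA the reads on a miRNA row can come from its host transcript, so no level of the mature miRNA is given. NUTM2G, which belongs to a family of near-identical copies, changed by 1.98, 0.22 and 0.03. PRSS3, a trypsinogen, had 123, 127 and 129 in the THZ1 libraries, against 35.2, 37.4 and 38.4 in the DMSO libraries in BxPC-3 and values of at most 3.79 in the other lines. MPZL3, an immunoglobulin-domain membrane protein, had 50.2, 42.4 and 44.4 in the THZ1 libraries, against 11, 11.9 and 11.6 in the DMSO libraries and at most 2.23 in the others. FERMT3, a kindlin that activates integrins, had 400.5, 429 and 417 in the THZ1 libraries, against 192, 203 and 202 in the DMSO libraries and at most 9.16 in the others. In these 3 genes the responses of the other lines rest on low values. FERMT3 rose by 1.06 in BxPC-3 and changed by -0.13 on the ERCC scale with no call.

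Named genes expressed in this line and held apart from both others by at least 1 log2 unit also included CEBPB, with -1.87 in BxPC-3 against -0.47 for MIA PaCa-2 and -0.07 for PANC-1. DNAJB1 showed -1.98 against -0.62 and -0.31, and JUND -1.48 against -0.23 and -0.44. VEGFA rose by 1.36 in BxPC-3 and changed by 0.01 and -0.07 in the other lines, SPRY4 by 1.60 against 0.33 and -0.14, and NRARP by 1.64 against 0.42 and 0.25. In contrast, JUNB rose by 2.26 in BxPC-3 and changed by 2.39 in MIA PaCa-2, a difference of -0.13 with limma adjusted p = 0.741. MYC changed by -0.95 in BxPC-3, against 0.19 and -0.03, differences of -1.15 and -0.92 with limma adjusted p = 1.51e-05 and 2.61e-05.

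**Figure D5:**
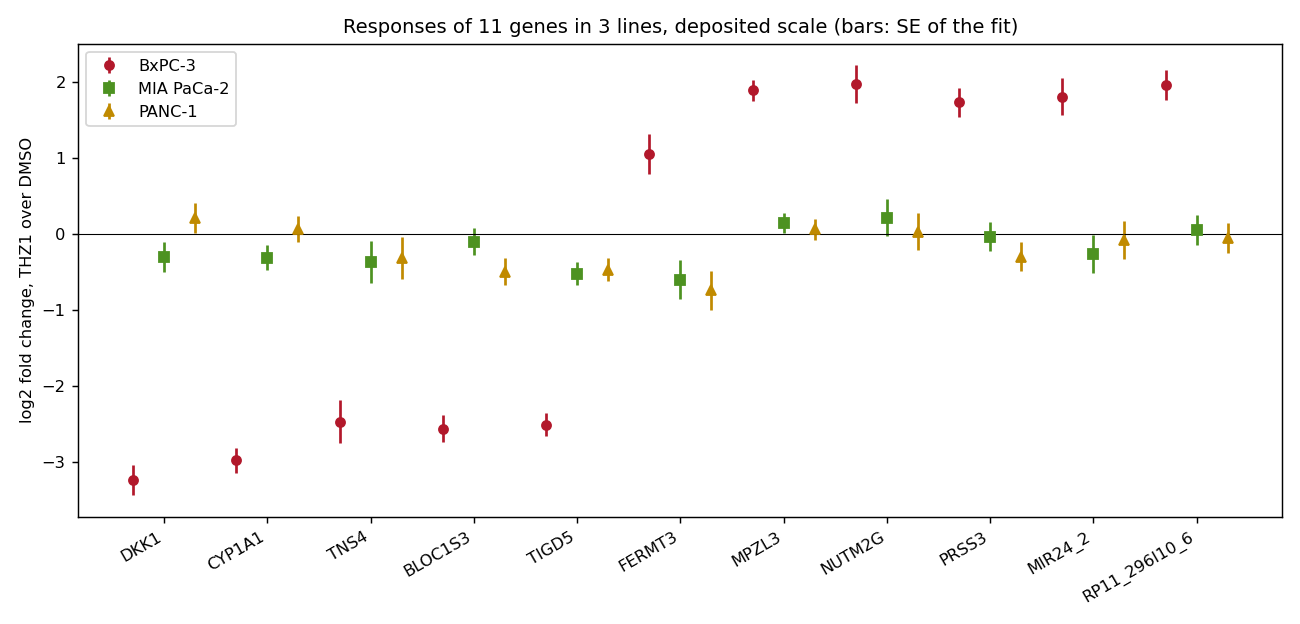
The vertical axis gives the log2 fold change of THZ1 over DMSO on the deposited scale for 11 genes in BxPC-3 (circles), MIA PaCa-2 (squares) and PANC-1 (triangles), with bars for the SE of the limma fit (n = 3 against 3 in each line). In BxPC-3, 5 genes lie between -3.24 and -2.47 and 6 between 1.06 and 1.98, while the changes in the other lines lie between -0.74 and 0.22.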

How the data were processed

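RNA-seq was measured in 18 libraries, 3 per group of line and treatment. Reads were aligned with STAR to hg19, per the submitters' processing notes; of the counter, its annotation and its strand setting nothing was stated. The labels' protocols name a stranded kit for polyadenylated RNA. The deposited signal values are quotients of whole reads and a divisor per library: multiplied back, 100% came within 0.001 of a whole number. How the divisors were set is not known. The authors' deposited log2 summaries over lines were not used.

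Values were multiplied by 1 constant (mean library sum 1e+06), and limma 3.58.1 in R 4.3.3 (trend on, 6 group means, 12 residual degrees of freedom) was fitted to log2(value + 1) of genes with at least 1 in at least 3 libraries, with Benjamini-Hochberg adjustment at 0.05. The ERCC scale divides each library by its total over 38 ERCC rows. Library reads were 6352482 to 20910423. edgeR 4.0.16 and DESeq2 1.42.0 were run on the recovered reads as alternatives; edgeR with TMM called 4111 genes higher and 4391 lower. In simulated data with 15354 genes, only 33 or 34 genes were given each fold change, and 15154 were left unchanged. Of these, 100% of the 4-fold changes, 90.9% of the 2-fold decreases and 91.2% of the 2-fold increases were called. Among the 15154 unchanged genes, 11 were called. These rates were not split by value, so they cannot be carried over to low genes. They also cannot stand for data in which most genes change, as in BxPC-3, where 59.0% of genes were called.

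Genes and lists were chosen with earlier results of these data known. Named genes were the 15 highest and 15 lowest changes, and the 10 of highest level in each direction, among genes changed at least 2-fold, called on both scales, not overlapping and at 20 or more in the higher group; the 3 highest and 3 lowest of each list; the 6 highest and 6 lowest differences from both other lines; and 13 fixed genes. Some of these are not reported here. Ribosomal, mitochondrially encoded and ZNF genes were left out of the naming. Dates had replaced 22 gene names, which stayed unnamed, and names carry _ for a hyphen. Promoter sequences are from RefSeq (GRCh38.p14), exon numbers from GENCODE 29, matched by symbol for 11805 genes (95.5% of the 12304 tested genes that RefSeq lists as protein-coding); no coordinates of the hg19 alignment are used.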

Additional observations from a re-analysis of the deposited data

Results flagged for a closer look

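The response of BxPC-3 was flagged in 34 of the genes named here because it differed from the responses of both MIA PaCa-2 and PANC-1 by at least 1 log2 unit, with limma adjusted p under 0.05 for each difference. The value given is the smaller of the 2 differences, BxPC-3 minus the other line, on the deposited scale. Below both lines were DKK1 (-2.94), CYP1A1 (-2.67), TNS4 (-2.10), BLOC1S3 (-2.07), TIGD5 (-2.0), IRF2BP1 (-1.80) and CYP1B1 (-1.57). Smaller differences in the same direction were those of HPS6 (-1.53), CEBPB (-1.41), DNAJB1 (-1.36), PRMT6 (-1.35), CEBPD (-1.19), FOXQ1 (-1.15), TGIF2 (-1.14), ZBED5 (-1.08), LINC00657 (-1.07), JUND (-1.04) and DDX58 (-1.01).

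Above both lines were RP11_296I10_6 (1.91), MIR24_2 (1.89), PRSS3 (1.77), NUTM2G (1.76), MPZL3 (1.75), FERMT3 (1.66), LINC00926 (1.49) and NNAT (1.42). VEGFA (1.35), CEACAM6 (1.29), SPRY4 (1.26), NRARP (1.22), CEACAM5 (1.16), C1orf63 (1.07), CDH1 (1.06) and IER2 (1.01) followed. All 34 kept their direction and their calls without PANC-1 DMSO replicate 1. The difference kept its call on the ERCC scale in 23 of them. The call of LINC00657 was lost without any 1 of the 6 BxPC-3 libraries. With 3 libraries per group, no group was large enough to look for single outlying values. The part of the lines' different levels of these genes in the differences was not tested.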

How the results depend on the processing

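All 215 named genes with a call, and the 6 others, were followed through the alternatives, 5078 values in all. Of these, 4872 kept their direction and their side of the threshold, 131 lost a call, 15 gained one and 60 changed sign with a call on at least 1 side; the cause was not tested. No named fall changed sign. On the ERCC scale the sign changed for CDK13 -0.88, CCNT1 -0.31, CCNT2 -0.30, CXXC1 -0.36, SCAF4 -0.064, SUPT5H -0.13, ELL -0.23, FOSL1 -1.13, BTC -0.37, LRIG1 -0.36, DUSP5 -0.80, ZBTB17 -0.25, MYCBP -0.36, FZD3 -1.01, CTNNB1 -0.069, WLS -0.21, PORCN -0.26, TGFB1 -0.016, LTBP1 -0.19, LTBP3 -0.20, NFKB1 -0.29, NFKBIB -0.25, PMAIP1 -0.21, BBC3 -0.13, BID -0.31, CDKN1A -0.78, STAT3 -0.18, CDH1 -0.16, KRT19 -0.77, TGFBI -0.23, P4HB -0.022, PDIA6 -0.041, HSP90AA1 -0.28, HSP90AB1 -0.14, ASNS -0.049, SHMT2 -0.13, CTSD -0.026, PRC1 -0.47, BIRC5 -0.57, POLD2 -0.087, MCM5 -0.20, TYMS -0.19, FANCA -0.36, CDK6 -0.35, HDAC3 -0.27, EZH2 -0.12, TRA2B -0.0050, DCP2 -0.11, SMG5 -0.11, FERMT3 -0.13. With equal library sums it changed for FOSL1 -0.67, DUSP5 -0.36, FZD3 -0.61, CDKN1A -0.33, KRT19 -0.31, PRC1 -0.011, BIRC5 -0.13. FOSL1, without a call on the deposited scale, was -0.26 with TMM factors, edgeR or voom.

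The counts over all genes depended on the scaling. Genes called higher numbered 207 (ERCC), 1434 (equal sums) and 3972 (TMM factors). Genes called lower numbered 9067 (ERCC), 6567 (equal sums), 4391 (edgeR with TMM) and 4417 (voom); the last 2 are also the counts lower on both scales with these tools. At least 2-fold rises numbered 60 (ERCC), 133 (equal sums), 418 (TMM factors), 521 (DESeq2 size factors), 970 (pseudocount 5), 938 (edgeR with TMM), 2467 (edgeR with the deposited divisors, an alternative chosen after seeing the data) and 968 (voom). At least 2-fold falls numbered 4872 (ERCC), 2876 (equal sums), 1702 (TMM factors), 1606 (DESeq2 size factors), 518 (pseudocount 5), 2369 (edgeR with TMM), 2366 (voom) and 2237 (DESeq2). Genes higher on both scales numbered 127 with a filter of 5, where fewer genes are tested, and 399 with the BxPC-3 libraries alone. The median log2 change was -0.64 (ERCC), -0.29 (equal sums), 0.30 (equal medians), 0.017 (TMM factors), 0.048 (DESeq2 size factors), 0.22 (no filter), 0.29 (filter of 5), 0.33 (pseudocount 0.1), 0.13 (pseudocount 5), 0.024 (edgeR with TMM), 0.34 (edgeR with the deposited divisors), 0.024 (voom) and 0.069 (DESeq2). The response was above both other lines in 90 genes and below both in 303 on the ERCC scale, where it differed from that of MIA PaCa-2 in 1210; without PANC-1 DMSO replicate 1 these counts were 1980, 1118 and 5426.

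Leaving out 1 BxPC-3 library at a time gave 5537 to 5617 genes higher, 2626 to 2689 lower, 1564 to 1673 and 1052 to 1080 at least 2-fold higher and lower, 153 to 190 higher on both scales and a median of 0.246 to 0.253. It gave 502 to 535 genes above and 390 to 426 below both lines, 1572 to 1690 that differed from MIA PaCa-2 and 5714 to 5908 that differed from PANC-1, an ERCC difference of 1.12 to 1.24 and one of -0.51 to -0.39 in endogenous reads per ERCC read. Of 32 named genes higher on both scales, 9 lost the ERCC-scale call without some library. Replicate numbers were not used to pair the libraries, as the labels do not say that they mark a pairing. Deviations of same-numbered THZ1 and DMSO libraries correlated at 0.086, 0.022 and -0.0031, and not every library correlated best with its own number. With 3 libraries per group, these correlations cannot show whether the libraries were paired. A replicate block gave 6360 genes higher and 2987 lower. Depth limits low genes, as 1 value unit stands for 12.2 to 21.1 reads. How the divisors were set and how much ERCC RNA was added per cell are not known, so the scales were not ranked.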

Other observations

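Several further genes whose longest coding transcript has 1 exon fell at least 2-fold in BxPC-3; they were chosen after their values were seen, for their known roles. PRMT6, an arginine methyltransferase of histones, had 5.3, 3.12 and 5.49 in the THZ1 libraries, against 27.7, 26.9 and 25.7 in the DMSO libraries (-2.33, limma adjusted p = 4.08e-08; ERCC -3.30). CSTF2T, a cleavage stimulation factor of polyadenylation, had 6.07, 4.28 and 5.65 in the THZ1 libraries, against 27.4, 29.6 and 31.5 in the DMSO libraries (-2.28; ERCC -3.28). RBM15B, a protein of the complex that methylates adenosines in mRNA, had 24.2, 23.5 and 23.6 in the THZ1 libraries, against 76.4, 77.7 and 77.6 in the DMSO libraries (-1.66; ERCC -2.80). In these 3 genes every THZ1 library lay below every DMSO library. RAP2B, a small GTPase, had 26.2, 27.7 and 25.3 in the THZ1 libraries, against 116, 114 and 122 in the DMSO libraries (-2.11; ERCC -3.25). CEBPD, a relative of CEBPB, had 21.2, 26.5 and 25.2 in the THZ1 libraries, against 57.1, 62.2 and 55.2 in the DMSO libraries (-1.23; ERCC -2.37), and the forkhead factor FOXQ1 had 31.5, 29.6 and 32.5 in the THZ1 libraries, against 83.9, 83 and 81.3 in the DMSO libraries (-1.38; ERCC -2.53). Their groups did not overlap either, with THZ1 lower.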
